A study of Mus musculus with 8 samples.

Results

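The 7 genes described here are *Tnfaip6*, *2810459M11Rik*, *S100a16*, *Ndp*, *Rasgrp3*, *Itpkb* and *Acvr1*, out of the 50686 genes of the count table and the 16018 genes with enough reads to be tested. They were selected on being lower after corticosterone in these same 8 libraries, from genes less known than the classic glucocorticoid targets. The lower level itself is therefore what chose them, and it is given as a description; where fits are said to call some of the 7, that count describes the choice and is no test of it. All 7 passed the filter on low counts.

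RNA was sequenced from the ventral hippocampus of 8-week-old male mice of the strain given as C57B6/J, which were housed in groups and carried no transgene that the labels name. A single injection of vehicle (replicates 1 to 4) or of 3 mg/kg corticosterone (replicates 5 to 8) was given 3 h before tissue was taken, and each library came from 1 mouse. No removal of the adrenals is named, so the comparison is of added corticosterone over whatever the mice made themselves. The question the comparison addresses is which hippocampal transcripts differ a few hours after a glucocorticoid pulse.

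Reads on genes ran from 19214090 to 19931987 per library in the vehicle group and from 17492159 to 19776297 in the corticosterone group. The glucocorticoid target *Fkbp5*, used as the check of the treatment, lay at 1709 to 2373 normalized counts after vehicle and at 3177 to 3510 after corticosterone. Transcripts of the hippocampal fields (*Prox1*, *C1ql2*, *Wfs1*, *Fibcd1*, *Grik4*, *Amigo2*) and of the ventral pole (*Trhr*, *Coch*) were detected in every library, and so was the dorsal transcript *Lct*. The summed level of the 2 ventral transcripts was 27.2 to 65.1 normalized counts per kb after vehicle and 50.8 to 88.4 after corticosterone (mean log2 difference 0.45), and that of *Lct* 45.7 to 84.8 and 40.9 to 54.5 (-0.44). The part of this difference between ventral and dorsal transcripts in the lower levels of the 7 genes was not tested. Corticosterone replicate 5 stood apart from the rest of its group, with 86.3% of its reads on genes against 84.6% to 84.8% in the other 3, and with 1.48% of ambiguous reads against 1.25% to 1.28%. Corticosterone replicate 6 was the smallest library. The share of reads that did not align uniquely was 0.0699% to 0.111% after vehicle and 0.0420% to 0.0536% after corticosterone, with no overlap, and its part in the values below was not tested.

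The 7 genes act at different points of cell signalling. *Ndp* encodes norrin, a secreted ligand that binds the receptor frizzled 4 together with the coreceptors LRP5 and LRP6 and the tetraspanin TSPAN12, and so switches on the beta-catenin branch of Wnt signalling; in the retina and brain this route is known for building and keeping the vascular barrier. *Tnfaip6* encodes TSG-6, a secreted protein that binds hyaluronan and moves the heavy chains of inter-alpha-inhibitor onto it. *Acvr1* encodes ALK2, a type I receptor of the BMP family. The products of *Rasgrp3*, *Itpkb* and *S100a16* work inside the cell. RasGRP3 loads Ras and Rap with GTP when diacylglycerol and calcium are raised, ITPKB adds a phosphate to the calcium-releasing messenger IP3, and S100A16 is a calcium-binding protein of the EF-hand kind. *2810459M11Rik* is annotated as protein coding and still carries the name of a cDNA clone.

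All of the genes except *2810459M11Rik* had a start-site window of 300 bases in RefSeq (GRCm38.p6; 250 bases before the annotated start and 50 after), in 8 windows. The following 3 windows are printed because they are the ones that held a match to a string searched for as a motif of a glucocorticoid-related factor. Each is 5′ to 3′ on the strand of the gene, with the match in capitals.
*Tnfaip6* (plus strand, chr2:52037863-52038162): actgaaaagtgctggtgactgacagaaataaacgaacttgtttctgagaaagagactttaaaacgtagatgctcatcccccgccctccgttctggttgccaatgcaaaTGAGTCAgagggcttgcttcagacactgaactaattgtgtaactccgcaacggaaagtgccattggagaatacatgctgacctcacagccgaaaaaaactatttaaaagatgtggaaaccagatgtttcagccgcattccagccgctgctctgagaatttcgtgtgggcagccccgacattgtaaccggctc
*S100a16*, second start site (plus strand, chr3:90540896-90541195): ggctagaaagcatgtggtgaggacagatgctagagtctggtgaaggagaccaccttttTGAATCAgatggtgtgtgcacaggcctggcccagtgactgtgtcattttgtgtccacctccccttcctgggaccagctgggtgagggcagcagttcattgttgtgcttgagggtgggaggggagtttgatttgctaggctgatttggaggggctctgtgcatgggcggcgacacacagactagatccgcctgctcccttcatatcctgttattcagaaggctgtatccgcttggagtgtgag
*Ndp* (minus strand, chrX:16911725-16912024): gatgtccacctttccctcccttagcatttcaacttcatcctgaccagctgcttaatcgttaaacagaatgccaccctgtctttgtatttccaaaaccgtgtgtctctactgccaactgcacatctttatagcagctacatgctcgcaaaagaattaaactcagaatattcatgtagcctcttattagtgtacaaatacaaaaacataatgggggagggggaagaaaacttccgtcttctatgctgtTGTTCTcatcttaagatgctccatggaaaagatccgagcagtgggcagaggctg
In *Ndp* the capitals mark TGTTCT, the reverse complement of AGAACA, which is one arm of a glucocorticoid response element. It begins 4 bases before the annotated start. AGAACA on either strand was found in 1 of the 8 windows, and 18.97% of the 32851 windows in the table held it. In *Tnfaip6* the capitals mark TGAGTCA, 142 bases before the start, and in *S100a16* TGAATCA, 192 bases before the start. Both match TGANTCA, a string looser than the AP-1 motif, which has G or C in the middle. Of the 2 matches, the one in *Tnfaip6* fits that motif and the one in *S100a16* does not. The looser string was in 2 of the 8 windows and in 7.81% of all windows. The full palindromic response element (AGAACA, 3 bases of any kind, TGTTCT) was in none of the 8 and in 0.00913% of all windows. The inverted repeat tied to glucocorticoid repression (CTCC, 1 base of any kind, GGAGA) was in none of the 8 and in 0.737% of all, and the CRE TGACGTCA in none of the 8 and in 1.79% of all. All motifs were searched on both strands, and none of the 3 matches overlapped another. A match here describes letters in a window and is no measurement of binding. The windows differed in base composition: the *Acvr1* window was 83.7% G and C, higher than 99.8% of all windows, and the *Itpkb* window 39.3%, against a median of 52.7%.

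Among the secreted proteins, *Tnfaip6* (GRCm38 chr2:52038009-52056686) had 174, 154, 139 and 135 normalized counts in vehicle replicates 1 to 4 and 86.8, 73.8, 71.5 and 104 in corticosterone replicates 5 to 8. Normalized counts here are reads scaled by the TMM method to a common library size. The groups did not overlap, and the highest corticosterone value, in replicate 8, was below the lowest vehicle value. In whole tissue, fewer cells of a type and less RNA per cell cannot be told apart, for this and for the other 6 genes. The means were 150 ± 17.5 and 84.1 ± 15.1 (SD, n = 4 each), a fitted log2 difference of -0.84 ± 0.15 (SE; 95% interval -1.16 to -0.51).

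*Ndp* (chrX:16885521-16911774) had 124, 120, 115 and 118 normalized counts after vehicle. After corticosterone it had 91.6, 67.3, 89.3 and 89.6. The vehicle values were nearly equal and corticosterone replicate 6 lay below the other 3 of its group, with no overlap between the groups. The means were 119 ± 3.63 and 84.5 ± 11.5 (SD, n = 4 each), with a log2 difference of -0.50 ± 0.14 (SE; 95% interval -0.79 to -0.20), which was -0.40 without corticosterone replicate 6.

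The membrane receptor *Acvr1* (chr2:58388644-58567157) had 601, 571, 648 and 600 normalized counts after vehicle and 563, 471, 522 and 543 after corticosterone. The groups were next to each other: 7.66 normalized counts separated the lowest vehicle value from the highest corticosterone value. The means were 605 ± 31.6 and 525 ± 39.7 (SD, n = 4 each), and the log2 difference was -0.20 ± 0.084 (SE).

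Of the intracellular proteins, *S100a16* (chr3:90537254-90543151) had the most reads of the 7, with 1025, 1087, 1005 and 1010 normalized counts after vehicle and 846, 714, 775 and 817 after corticosterone. The groups were well separated, with no value of either group near the other. The means were 1032 ± 38.0 and 788 ± 57.4 (SD, n = 4 each), with a log2 difference of -0.39 ± 0.075 (SE).

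*Rasgrp3* (chr17:75435896-75529054) had 186, 206, 196 and 177 normalized counts after vehicle and 175, 119, 149 and 152 after corticosterone. Its groups were kept apart by 1.26 normalized counts only, between vehicle replicate 4 and corticosterone replicate 5. The means were 191 ± 12.5 and 149 ± 23.0 (SD, n = 4 each), with a log2 difference of -0.36 ± 0.13 (SE). This was -0.44 without corticosterone replicate 5 and -0.26 without replicate 6.

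*Itpkb* (chr1:180330485-180424802) had 727, 752, 771 and 709 normalized counts after vehicle and 701, 653, 652 and 624.5 after corticosterone. It showed the smallest difference of the 7, with 7.99 normalized counts between the groups. The means were 740 ± 27.4 and 658 ± 31.7 (SD, n = 4 each), and the log2 difference was -0.17 ± 0.073 (SE). Of the 7 genes it is the one that shares exon sequence with another annotated gene, 66 bases with the pseudogene *Gm5069* on the opposite strand, and the strand setting of the counting is not given in the sources used here.

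The gene without an assigned role, *2810459M11Rik* (chr1:86045863-86055456), had 172, 189, 256 and 250 normalized counts after vehicle and 139, 105, 124 and 116 after corticosterone. The vehicle mice split into a lower and a higher pair, and all 4 corticosterone mice were below both. The means were 217 ± 42.6 and 121 ± 14.4 (SD, n = 4 each), with a log2 difference of -0.84 ± 0.15 (SE; 95% interval -1.17 to -0.51), as large as that of *Tnfaip6*.

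**Figure D1:**
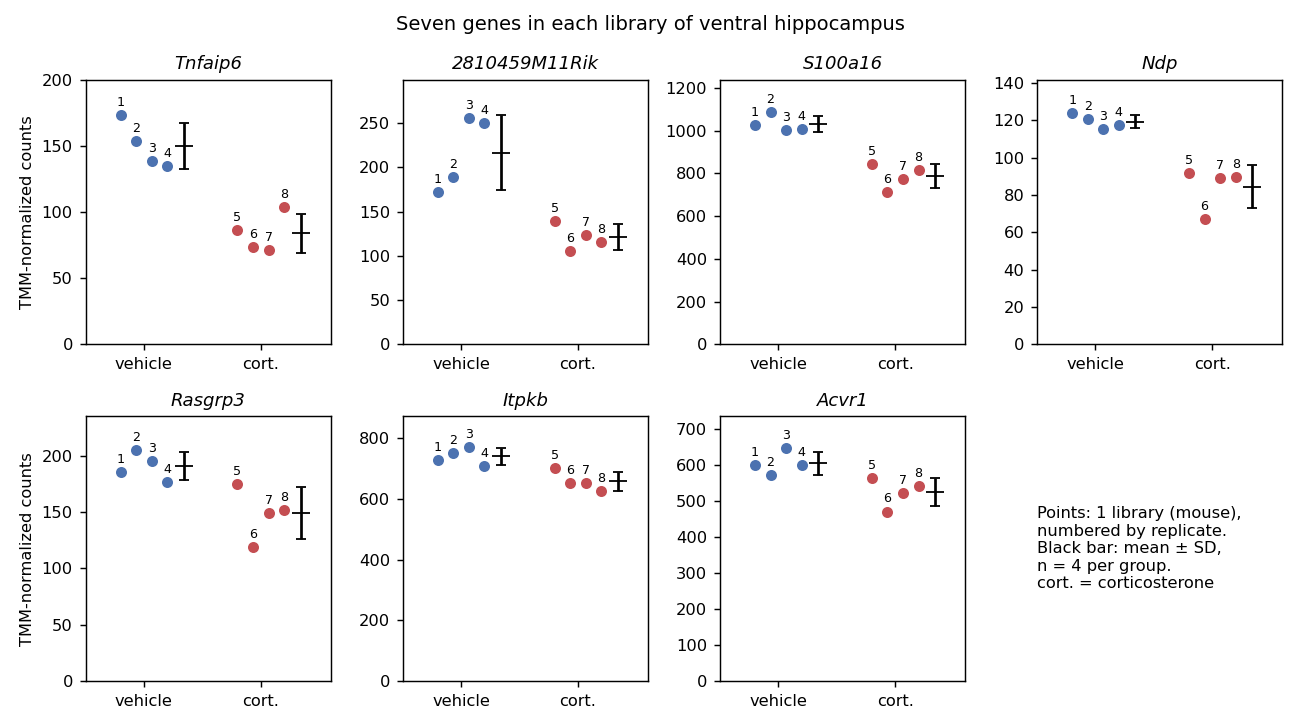
TMM-normalized counts (vertical axes, from 0) of the 7 genes in each of the 8 libraries; points are single mice numbered by replicate, and bars are mean ± SD of 4. In each gene the 4 corticosterone points lie below the 4 vehicle points, with a gap of 1.26 counts in *Rasgrp3* and a wide one in *S100a16*.

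All 7 genes had every corticosterone value below every vehicle value, as did 1.68% of all genes tested. At an unadjusted p under 0.05 in edgeR's quasi-likelihood test all 7 lay in the lower direction, in which 4.52% of all genes tested did so (9.03% in either direction). None of the 7 passed the adjusted threshold of 0.05, which 0.00624% of genes passed, namely 1 gene, *Fkbp5*. With DESeq2 *Tnfaip6*, *2810459M11Rik* and *S100a16* passed it, where 0.119% of the genes tested were called lower. The same 3 passed in edgeR with no filter on low counts, where 0.109% of all genes were called lower, and 1 (*2810459M11Rik*) without vehicle replicate 1, where 0.00618% were. Without corticosterone replicate 5 the number was 5, *Ndp* and *Rasgrp3* being added, in a fit that called 6.47% of all genes lower and 10.2% in either direction. The number at an unadjusted p under 0.05 was 4 without corticosterone replicate 6 (2.12% of all genes lower at that p) and 3 with the ambiguous share as covariate (4.49%). Since these values chose the genes, nothing is read from the counts.

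Corticosterone replicates 5 and 6 set much of the spread within the corticosterone group. The former gave the highest value of its group in 6 of the 7 genes and the latter the lowest in 5 of the 7. Without replicate 5 the log2 differences were -0.85 for *Tnfaip6*, -0.91 for *2810459M11Rik*, -0.42 for *S100a16*, -0.54 for *Ndp*, -0.20 for *Itpkb* and -0.24 for *Acvr1*. Without replicate 6 they were -0.78, -0.78, -0.34, -0.40, -0.17 and -0.16 in the same order. Leaving out any 1 library kept each of the 7 differences below 0. When the ambiguous share of each library (median 1.65% after vehicle and 1.27% after corticosterone) entered the fit as a covariate, it left *2810459M11Rik* at -0.87 and *Tnfaip6* at -0.71, and brought *Acvr1* to -0.13, *Rasgrp3* to -0.11 and *Itpkb* to -0.05. This share largely followed the group. It was 1.64% to 1.67% in vehicle replicates 1 to 3 and 1.25% to 1.28% in corticosterone replicates 6 to 8. Only vehicle replicate 4 (1.40%) and corticosterone replicate 5 (1.48%) were out of that order. In this fit the share and the treatment can therefore hardly be told apart, here and for the genes below.

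**Figure D2:**
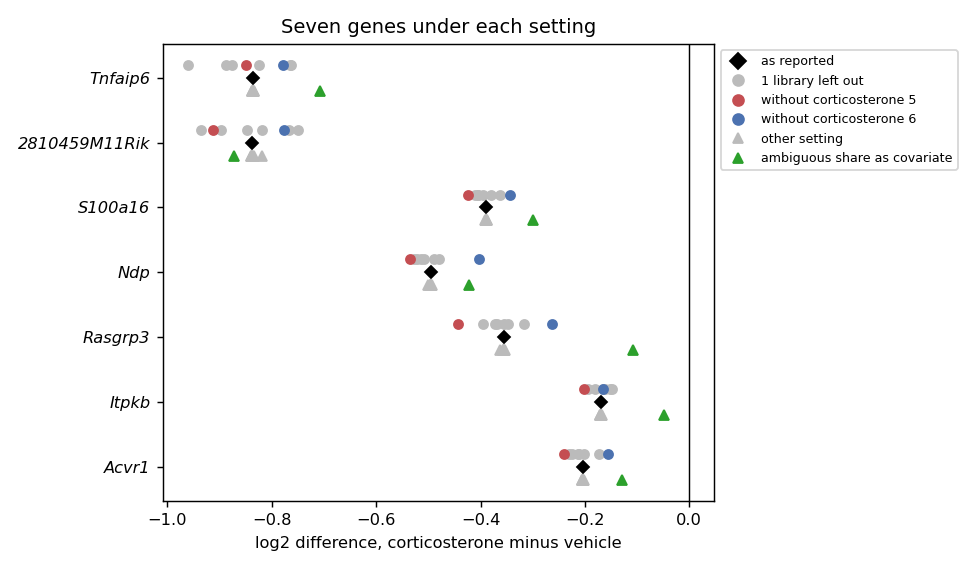
Fitted log2 difference, corticosterone minus vehicle (horizontal axis), of each gene as reported (black), with 1 library left out (circles) and under other settings of the fit (triangles). All points lie below 0, and the fit with the ambiguous share as covariate (green) moves *Rasgrp3* to -0.11 and *Itpkb* to -0.05.

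The spread between mice within each group was set beside that of genes of like abundance. Among vehicle mice *Ndp* was very even: the SD of its log2 level was 0.043, larger than that of only 1% of the 500 genes nearest to it in abundance, whose median SD was 0.20. It had 118 to 126 reads per vehicle library, and random sampling of so few reads alone usually gives a wider spread. The evenness is therefore not read as a trait of the mice. *Itpkb* (SD 0.053) exceeded 9% of its neighbours, *S100a16* (SD 0.052) 12.6%, *Rasgrp3* (SD 0.094) 13.8%, *Acvr1* (SD 0.074) 20.2% and *Tnfaip6* (SD 0.16) 37%. *2810459M11Rik* was the exception, with an SD of 0.29 that exceeded 84.6% of its neighbours. Among corticosterone mice the 7 were unremarkable in this respect. The share of neighbours they exceeded ran from 13.4% for *Itpkb* to 66.6% for *Rasgrp3*, and was 46.4% for *Ndp*. An even vehicle group helps to keep 2 groups from overlapping, so these SDs are a description of genes that were chosen on the same libraries.

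To see whether the genes varied together from mouse to mouse, the log2 level in each library was set against the mean of its own group, which removes the contrast that chose them. Over the 21 pairs the median Pearson r of these deviations was 0.39 (8 libraries), and 19 pairs were above 0. Over all pairs of the 13501 genes with a mean log2 CPM of at least 1 the median r was 0, with 50% of pairs above 0. *S100a16* and *Rasgrp3* ran most closely together (r = 0.92), followed by *Ndp* with *Rasgrp3* (0.84) and *S100a16* with *Ndp* (0.83). *Tnfaip6* and *2810459M11Rik*, the genes with the largest differences, ran against each other (-0.39). The vehicle mice show it: *Tnfaip6* was highest in replicates 1 and 2, and *2810459M11Rik* in replicates 3 and 4. Without corticosterone replicate 6 the median r was 0.24, and without replicate 5 it was 0.27. The deviations also ran with the number of reads on genes, with r between 0.69 and 0.87 for *Tnfaip6*, *S100a16*, *Ndp*, *Rasgrp3* and *Acvr1*, 0.38 for *2810459M11Rik* and 0.12 for *Itpkb*. The part of library size in the likeness was not tested.

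**Figure D3:**
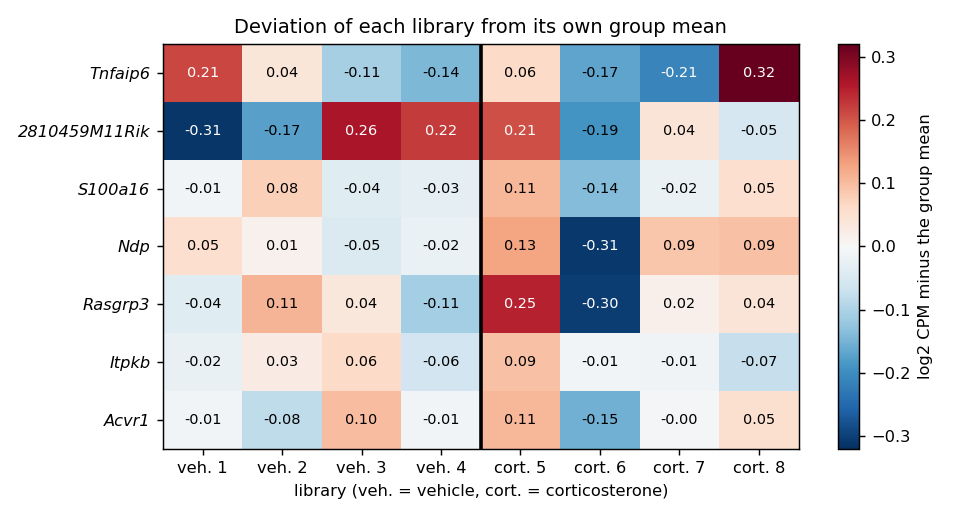
Deviation of log2 CPM from the mean of the library's own group for the 7 genes (rows) in 8 libraries (columns); red is above and blue below the group mean. Corticosterone replicate 6 is below its group mean in all 7 rows and replicate 5 above it in all 7, while *Tnfaip6* and *2810459M11Rik* take opposite colours in the vehicle mice.

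Over the same 8 libraries the genes most like each member, among 13500 genes searched, were the following. For *Ndp* they were *Asb16* (r = 0.98) and *Rab29* (0.96), for *Tnfaip6* *Cby1* (0.99) and *Kcnj14* (0.96), and for *Acvr1* *Zfp532* (0.99) and *Mcub* (0.98). For *S100a16* they were *Foxj1* (0.99) and *Tmub2* (0.97), for *Rasgrp3* *Cdkn2d* (0.99) and *Arhgef10l* (0.98), and for *Itpkb* *Mknk2* (0.99) and *Trim3* (0.99). *2810459M11Rik* was most like *Zbtb4* (0.98) and *D16Ertd472e* (0.98). These are the highest of 13500 values over 8 points each, and all of the points share their libraries. None of the 14 passed the adjusted threshold between the groups in edgeR: *Cby1* differed by 0.02 ± 0.073 and *Kcnj14* by -0.65 ± 0.20 (log2 difference ± SE; adjusted p = 0.94 and 0.44).

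The partners of each gene are a list fixed by known function, drawn up with earlier results of these data known. For norrin, the receptor *Fzd4* had 387, 232, 248 and 286 normalized counts after vehicle and 389, 484, 467 and 443 after corticosterone. Its groups did not overlap, although vehicle replicate 1 and corticosterone replicate 5 nearly touched. The log2 difference was 0.63 ± 0.15 (SE), with an adjusted p of 0.25 in edgeR and of 0.0245 in DESeq2. It was opposite in sign to that of its ligand, which was chosen for its lower level. The adjusted p was 0.041 without vehicle replicate 1, 0.0178 without corticosterone replicate 5 and 0.63 without corticosterone replicate 6, all with edgeR.

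The coreceptor *Lrp6* had 936 to 1037 normalized counts after vehicle and 1063 to 1238 after corticosterone, again with no overlap. Its log2 difference of 0.26 ± 0.073 (SE) had an adjusted p of 0.40 in edgeR, which became 0.0178 without corticosterone replicate 5, the fit in which 10.2% of all genes passed. *Lrp5* (-0.0095 ± 0.14) and *Tspan12* (0.03 ± 0.099; log2 difference ± SE) lay near 0 in the fit without a covariate. With the share of ambiguous reads as covariate the differences were 0.45 for *Fzd4*, 0.09 for *Lrp6*, 0.46 for *Lrp5* and -0.15 for *Tspan12*. *Tspan12* shares 98 bases of exon with a gene on the opposite strand.

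With these receptors and coreceptors included, 28 genes of the norrin and Wnt receptor pathway were measured besides *Ndp*. None passed the adjusted threshold in edgeR; 4 were higher, *Fzd4* and *Lrp6* among them, and 4 lower at an unadjusted p under 0.05, with a median log2 difference of -0.09 against 0.0036 over all genes tested. *Nkd1*, a feedback inhibitor of the pathway, had the smallest p among the lower ones (-0.46 ± 0.14, log2 difference ± SE; edgeR adjusted p = 0.44).

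For *Tnfaip6*, the hyaluronan synthase gene *Has2* and *Ptx3*, whose product binds TSG-6 in the hyaluronan matrix, had too few reads to be tested. *Has2* had 5, 6, 13 and 6 reads after vehicle and 3, 2, 0 and 4 after corticosterone, and *Ptx3* 2 to 6 and 2 to 7. *Has2* also shares 182 bases of exon with the antisense gene *Has2os*. The hyaluronan receptor *Cd44* differed by 0.33 ± 0.22 and *Itih3*, a heavy chain of the inter-alpha-inhibitor family, by -0.0034 ± 0.091 (log2 difference ± SE), neither past the threshold in edgeR (adjusted p = 0.60 and 0.99). Of 23 measured genes of the hyaluronan matrix besides *Tnfaip6* none passed it, and 3 were higher and 1 lower at an unadjusted p under 0.05. The lowest p in each direction belonged to *Lyve1*, a hyaluronan receptor of lymphatic vessels and perivascular macrophages (0.89 ± 0.29; 7.90 to 18.6 normalized counts after vehicle and 20.0 to 28.3 after corticosterone), and to *Ncan*, a brain proteoglycan (-0.24 ± 0.084), with adjusted p = 0.47 and 0.50 in edgeR.

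For the BMP receptor *Acvr1*, the type II receptors *Bmpr2* (0.15 ± 0.11) and *Acvr2a* (0.23 ± 0.12) and the type I receptor *Bmpr1a* (0.03 ± 0.097; log2 difference ± SE) did not pass the threshold in edgeR, and with the ambiguous share as covariate they turned in sign, to -0.27, -0.22 and -0.23 in the same order. *Acvr2a* shares 446 bases of exon with *Orc4* and *Bmpr1a* 290 with *Gm17110*, on the opposite strand. Nor did *Fkbp1a*, whose product FKBP12 holds type I receptors inactive (-0.02 ± 0.069). Of the Id transcripts, which BMP receptors are known to induce, *Id1* and *Id3* had log2 differences of -0.33 ± 0.23 and -0.61 ± 0.25 (SE; edgeR adjusted p = 0.61 and 0.53), and *Id1* turned to 0.47 with that covariate. *Id2* and *Id4* of the same list, named after their values were seen, were at -0.0084 ± 0.066 and 0.07 ± 0.079 (edgeR adjusted p = 0.97 and 0.73). *Id3* had 242, 485, 389 and 370 normalized counts after vehicle and 383, 203, 156 and 229 after corticosterone, with vehicle replicate 1 and corticosterone replicate 5 out of order with their groups. Without corticosterone replicate 5 its log2 difference was -0.92 (edgeR adjusted p = 0.0178), and with the share of ambiguous reads as covariate it was -0.11.

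Of 43 measured genes of the BMP and activin receptor pathway none passed the threshold in edgeR; 2 were higher and 5 lower at an unadjusted p under 0.05. The coreceptor gene *Rgma* had 796 to 992 normalized counts after vehicle and 539 to 856 after corticosterone (-0.47 ± 0.14, log2 difference ± SE; adjusted p = 0.41), and was past the threshold without corticosterone replicate 5 (adjusted p = 0.00713) and with no filter on low counts (0.0433) in the same test. The ligand *Bmp6* had 35.2 to 76.4 and 55.7 to 102 normalized counts (0.74 ± 0.26; edgeR adjusted p = 0.50).

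None of the partners of the intracellular genes passed the adjusted threshold in edgeR with all 8 libraries. The relatives of *S100a16* differed by -0.09 ± 0.065 for *S100b*, -0.11 ± 0.079 for *S100a1*, 0.02 ± 0.14 for *S100a6* and 0.08 ± 0.11 for *S100a10* (log2 difference ± SE). Of the 6 other S100 genes measured, *S100a11* had an unadjusted p under 0.05 (0.79 ± 0.27; edgeR adjusted p = 0.49), with 28.4 to 45.1 normalized counts after vehicle and 42.9 to 89.6 after corticosterone.

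The exchange factors nearest to *Rasgrp3* differed by -0.03 ± 0.080 for *Rasgrp1* and 0.07 ± 0.14 for *Rasgrp2*, which shares 265 bases of exon with *Gm14965* on the opposite strand, and the GTPases they load by 0.10 ± 0.11 for *Rap1a* and -0.12 ± 0.082 for *Hras*. Of 33 measured Ras and Rap exchange genes 2 were higher and 1 lower at an unadjusted p under 0.05, led by *Rap1b* (0.21 ± 0.095) and *Rasgrp4* (-0.86 ± 0.37, on 5 to 20 reads), each with an adjusted p of 0.55 in edgeR.

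The other IP3 3-kinases differed by -0.29 ± 0.20 for *Itpka*, the main form of hippocampal neurons, and by -0.10 ± 0.15 for *Itpkc*. *Itpka* had 2712 to 4606 normalized counts after vehicle and 2323 to 4523 after corticosterone, where the highest was replicate 5, and the other 3 were at most 2815. Without replicate 5 its log2 difference was -0.56 (edgeR adjusted p = 0.0247), and with the ambiguous share as covariate its sign turned, to 0.49. *Itpkc* turned likewise, to 0.22; it shares 1273 bases of exon with the protein-coding gene *BC024978* on the opposite strand. The IP3 receptors *Itpr1* and *Itpr2* differed by -0.0082 ± 0.093 and 0.18 ± 0.12, and *Itpr1* shares 108 and 181 bases with the opposite-strand genes *Gm44040* and *Gm44101*. Of 25 measured genes of inositol phosphate metabolism and release none passed the threshold in edgeR, and 1 was higher (*Ipmk*, 0.18 ± 0.080) and 1 lower (*Inpp5d*, -0.37 ± 0.13, log2 difference ± SE) at an unadjusted p under 0.05. Both passed without corticosterone replicate 5, with edgeR adjusted p = 0.0394 and 0.0335.

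**Figure D4:**
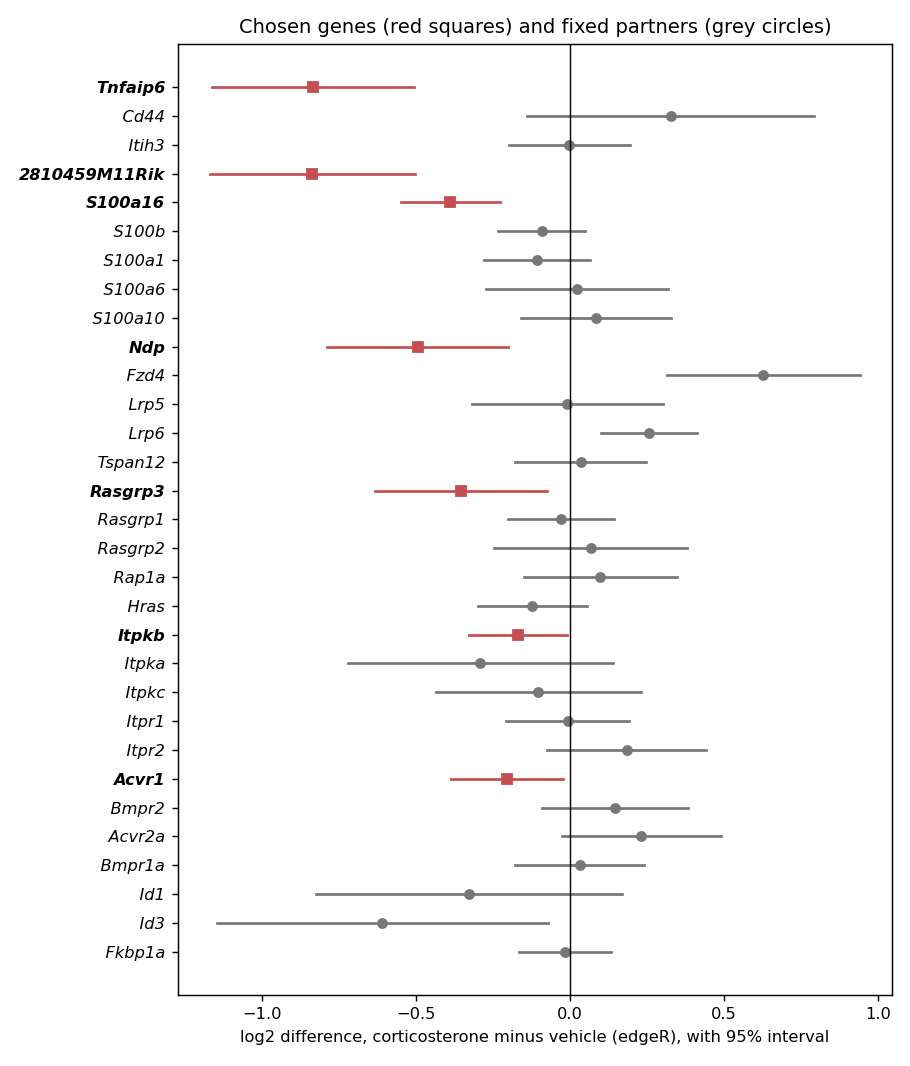
Fitted log2 difference, corticosterone minus vehicle (horizontal axis), with its 95% interval, for the 7 chosen genes (red squares) and the 24 partners tested (grey circles, under the gene they belong to; n = 4 libraries per group). Among the partners, the intervals of *Fzd4* and *Lrp6* lie above 0 and that of *Id3* lies below 0. The 7 chosen genes were selected on these values, so their own intervals are no test.

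Across the 6 lists 158 genes were measured. None passed the adjusted threshold in edgeR, 13 were higher and 12 lower at an unadjusted p under 0.05, and 82 had a negative log2 difference, with a median of -0.0035. Over all genes tested 722 were higher and 724 lower at that p and 7891 of 16018 were negative. DESeq2 called 1 of the listed genes, *Fzd4*, and 0.374% of all genes, and edgeR with no filter on low counts called *Fzd4* and *Rgma*. Without corticosterone replicate 5 edgeR called 24 of the listed genes, beside 10.2% of all genes, among them, besides those given above with that fit, *Nkd1*, *Ncan*, *S100a11*, *Rap1b* and *Acvr2a* (adjusted p between 0.0253 and 0.0423). With the ambiguous share, which largely followed the group, as covariate, 16 of the partners and leading genes turned in sign. *Cd44*, *Tspan12*, *S100a1*, *Rap1a*, *Rap1b*, *Hras*, *Rasgrp4* and *Ipmk* were among them.

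Levels per kilobase of annotated exon allow a rough comparison between genes. The length is that of all annotated exons merged, whether or not they are used in this tissue, so close ranks depend on the annotation. *Ndp* stood at 61.5 ± 1.87 normalized counts per kb after vehicle (SD, n = 4). *Tspan12* (93.6 ± 4.09) and *Lrp6* (72.4 ± 3.01) were above it and *Fzd4* (42.9 ± 10.3) and *Lrp5* (28.0 ± 4.34) below, with no overlap between neighbours over the 4 mice. After corticosterone *Fzd4* was at 66.3 ± 6.15 per kb and *Ndp* at 43.6 ± 5.94, so that the level of the receptor transcript lay above that of its ligand. *Ndp* was chosen for its lower level, so this order follows in part from the choice.

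*S100a16* ranked 3 among 17 S100 genes per kb, at 638 ± 23.5 after vehicle and 487 ± 35.5 after corticosterone. *S100a1* (1440 ± 116) and *S100b* (1398 ± 51.9) were higher and overlapped each other, and *S100a13* (370 ± 25.4) came next below. *Tnfaip6*, at 88.0 ± 10.3 per kb, was well above the hyaluronan synthase *Has3* (3.35 ± 1.14) and the receptor *Cd44* (8.70 ± 2.72), and below the proteoglycans *Bcan* (1221 ± 105) and *Ncan* (545 ± 54.5).

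Among type I receptors of the BMP and activin family *Acvr1*, at 125 ± 6.55 per kb, came after *Acvr1b* (549 ± 27.9) and *Bmpr1a* (173 ± 22.0). *Tgfbr1* (76.2 ± 8.04) and *Bmpr1b* (73.4 ± 12.8), which overlapped each other, were below it. *Rasgrp3* and *Itpkb* were minor forms in this tissue. *Rasgrp3* had 32.7 ± 2.14 normalized counts per kb beside 2297 ± 228 for *Rasgrp1*, and *Itpkb* 70.7 ± 2.61 beside 2029 ± 429 for *Itpka*, after vehicle.

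**Figure D5:**
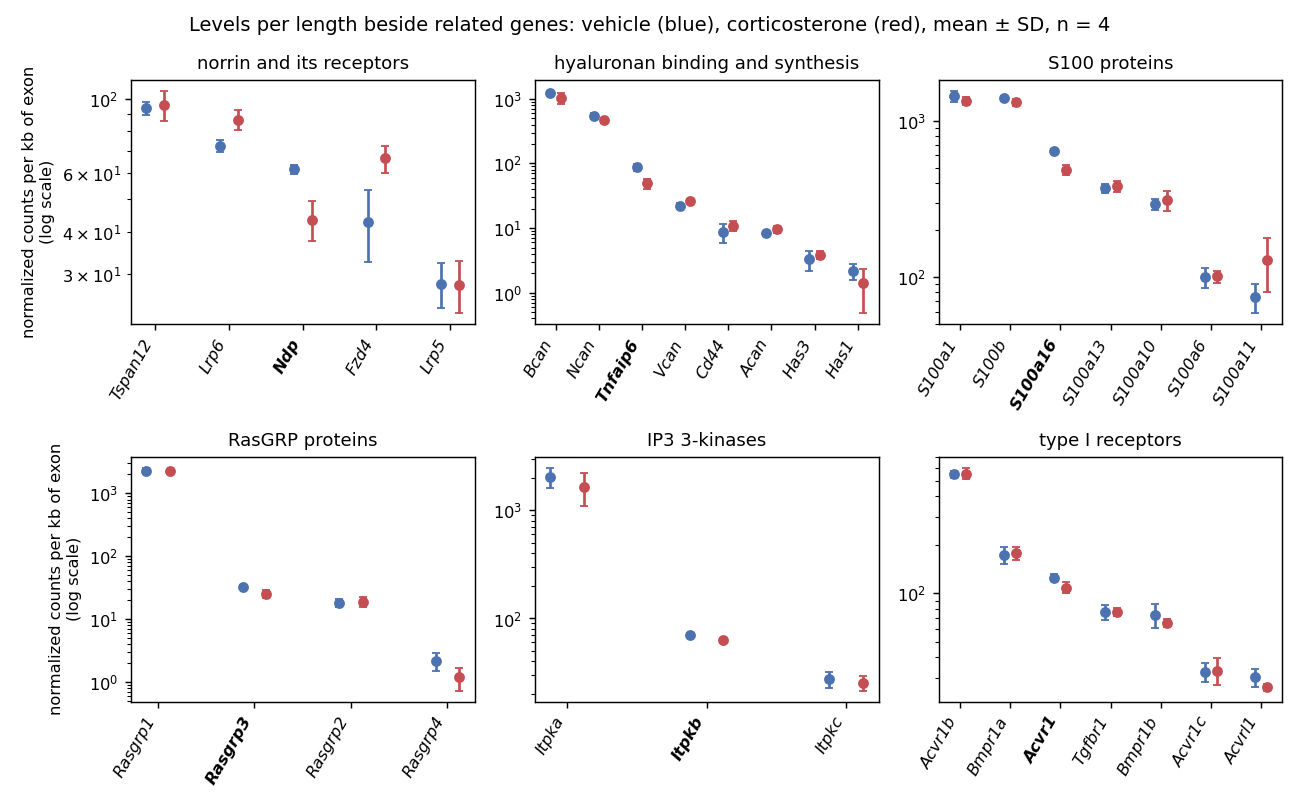
Normalized counts per kilobase of exon (log axes) of the 6 genes with known relatives or partners (bold names) beside those genes, after vehicle (blue) and corticosterone (red); points are means and bars SD of 4 libraries. *Rasgrp3* and *Itpkb* lie far below *Rasgrp1* and *Itpka*, and *Ndp*, chosen for its lower level, and *Fzd4* change places between the groups.

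Several of these genes are known from glia or vessels, so summed levels of cell type markers are given beside them, in normalized counts per kb. The 10 astrocyte markers summed to 16094 to 17516 after vehicle and to 15989 to 17097 after corticosterone, and 5 of 10 were lower. The 10 endothelial markers summed to 1014 to 1207 and to 939 to 978, with no overlap and 8 of 10 lower. The 10 microglial markers summed to 3893 to 4293 and to 3363 to 4304, with 9 of 10 lower. The 10 oligodendrocyte markers summed to 12405 to 22138 and to 12314 to 14784, with 10 of 10 lower. The 6 markers of oligodendrocyte precursors summed to 865 to 1077 and to 753 to 1005, with 3 of 6 lower. At an unadjusted p under 0.05 in edgeR, 3 of these precursor markers were lower and 1 was higher. The 8 meningeal markers, at 342 to 635 and 495 to 884, were all higher after corticosterone, and the choroid plexus sums overlapped widely, at 119 to 796 and 263 to 823. The 8 mural cell markers summed to 799 to 1094 and to 938 to 1040, with 1 of 8 lower, and the 5 ependymal markers to 83.4 to 155 and to 91.6 to 223, with 0 of 5 lower. The 5 erythrocyte markers summed to 2151 to 6823 and to 2100 to 2740, with 5 of 5 lower. The 5 markers of glutamatergic neurons summed to 18773 to 23772 and to 17706 to 20657, with 4 of 5 lower, and the 6 of GABAergic neurons to 9114 to 11224 and to 8077 to 11764, with 3 of 6 lower. None of these markers passed the adjusted threshold in edgeR, and no defining marker of these lists was at 0 in every library. At an unadjusted p under 0.05 in edgeR, 4 oligodendrocyte, 2 microglial and 2 endothelial markers were lower and 0 of these lists higher. For astrocytes 1 was lower and 1 higher, and for mural cells 1 lower and 2 higher. In the meningeal and choroid plexus lists 2 each were higher, and in the ependymal list 1. In the erythrocyte and glutamatergic lists 1 each was lower, and in the GABAergic list 0 were in either direction. On the log2 scale the mean of the endothelial sum differed by -0.16, the microglial by -0.16, the oligodendrocyte and the oligodendrocyte precursor by -0.22 each, the astrocyte by -0.02, the erythrocyte by -0.40, the GABAergic by -0.19, the glutamatergic by -0.14, the mural by 0.17, the ependymal by 0.36, the meningeal by 0.49 and the choroid plexus by 0.86, beside -0.84 for *Tnfaip6* and *2810459M11Rik*, -0.50 for *Ndp*, -0.39 for *S100a16*, -0.36 for *Rasgrp3*, -0.20 for *Acvr1* and -0.17 for *Itpkb*. The differences of *Acvr1* and *Itpkb* were no larger than that of the oligodendrocyte sum, whose SD among vehicle mice was 0.37 on this scale. Within the groups, the deviations of *Acvr1* and *Itpkb* had r of 0.05 and 0.08 with that sum (8 libraries). Single markers differed more than the sums, *Sox10* by -0.78, *Cx3cr1* by -0.76, *Cldn5* by -0.72 and *Olig2* by -0.41 (chosen after their values were seen). Within the groups, deviations of *Itpkb* ran with those of the GABAergic sum (r = 0.93, 8 libraries) and with the ambiguous share (0.86), those of *S100a16* and *Rasgrp3* with the microglial sum (0.85 and 0.82), those of *Tnfaip6* and *Ndp* with the ependymal sum (0.82 and 0.80), those of *Acvr1* with the glutamatergic sum (0.82) and those of *2810459M11Rik* with the sum of the hippocampal fields (0.68). These are the highest of 15 lists for each gene, over points that share their libraries. The part of these markers in the 7 differences was not tested.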

How the data were processed

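RNA-seq was measured in 8 libraries of ventral hippocampus, 4 vehicle and 4 corticosterone, 1 mouse each. The authors aligned stranded 100 bp paired-end reads to mm10 with GSnap and counted them with HTSeq-count; the deposited values are raw counts per gene. The annotation release and strand setting are not given in the sources used here, and 0 columns were left out. HTSeq's summary rows stayed out of library sizes; reads on genes were 84.6% to 86.3% of all counted. Totals ranged from 17492159 to 19931987 reads on genes.

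Symbols and coordinates came from GENCODE M21 (GRCm38), with 50376 of 50686 identifiers found. Counts were normalized with TMM and fitted in edgeR 4.0.16 (R 4.3.3; filterByExpr, quasi-likelihood test, Benjamini-Hochberg, threshold 0.05; 16018 genes). Intervals are at the 95% level. The code was tested on simulated data. Log2 CPM used a prior count of 2, and likeness was searched among genes with a mean log2 CPM of at least 1. Levels per kb used the merged exon length. Alternatives were DESeq2 1.42.0, limma-voom (limma 3.58.1), 2 other normalizations, 2 filters, robust dispersion, the ambiguous share as covariate and each library left out, 16 settings in all.

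The 7 genes, the lists and the tests were chosen with earlier results of these data known. Named are the 7 genes, their fixed partners, in each list the gene with the smallest unadjusted p under 0.05 in each direction and any gene past the adjusted threshold, and the 2 genes most like each member. Other listed genes are counted, apart from family levels per kb and the few named as chosen after their values were seen. The libraries are of separate mice, and no batch is named in the labels.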

Additional observations from a re-analysis of the deposited data

Results flagged for a closer look

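In 126 sets of 4 values from 1 group, 12 held a value far from the other 3 by Dixon's criterion at the 95% level, where chance gives about 6.3 if the sets were independent; these share their libraries. *Ndp* in corticosterone replicate 6 had 67.3 normalized counts against 89.3 to 91.6 in the other 3 of its group, and *Asb16*, which was picked for its likeness to *Ndp* over these libraries and so is no separate case, had 20.6 against 44.1 to 45.8 in the same library. *Itpr2* had 401 normalized counts there against 467 to 476. In corticosterone replicate 5, *Lrp6* had 1063 normalized counts against 1209 to 1238, *Bmpr2* 1994 against 2664 to 2765, and *S100a1* 1010 against 896 to 906. That library also had 86.3% of its reads on genes against 84.6% to 84.8%, and 1.48% ambiguous reads against 1.25% to 1.28%. Among the vehicle libraries, *Tspan12* had 289.5 normalized counts in replicate 3 against 315 to 318, and 6.35% of the reads of that library did not align, against 7.06% to 7.13%. In vehicle replicate 4 *Acvr2a* had 1020 normalized counts against 775 to 801, and 1.40% of reads were ambiguous against 1.64% to 1.67%.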

How the results depend on the processing

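All 7 genes stayed below 0 in all 16 settings. With the share of ambiguous reads as covariate the log2 differences were -0.30 for *S100a16*, -0.42 for *Ndp*, -0.11 for *Rasgrp3*, -0.05 for *Itpkb* and -0.13 for *Acvr1*. The share largely followed the group, so it can hardly be told apart from the treatment, and the cause was not tested. No paired analysis was possible because vehicle and corticosterone libraries have no replicate numbers in common. The count of genes past the threshold, 1 with edgeR, was 63 with DESeq2, 79 with no filter, 0 with at least 10 counts in every library and 38 with the covariate, and ran from 0 to 1651 with 1 library left out (1651 without corticosterone replicate 5, 19 without vehicle replicate 1). Of the listed pathway genes, 0 with edgeR, 1 passed with DESeq2 and 2 (*Fzd4*, *Rgma*) with no filter, and 0 to 24 with 1 library left out (24 without corticosterone replicate 5, 1 without vehicle replicate 1). *Fkbp5* kept its direction, at 0.69 to 0.86, but missed the adjusted threshold in 6 of the 8 fits with a library left out and with at least 10 counts in every library (adjusted p = 0.053).

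The median likeness of the 7 genes was 0.24 to 0.50 with 1 library left out. With the covariate the sign turned for *Lrp5* (0.46), *Tspan12* (-0.15), *Cd44* (-0.16), *S100a1* (0.076), *Rap1a* (-0.21), *Hras* (0.10), *Itpka* (0.49), *Itpkc* (0.22), *Itpr1* (0.030), *Bmpr2* (-0.27), *Acvr2a* (-0.22), *Bmpr1a* (-0.23), *Id1* (0.47), *Rap1b* (-0.11), *Rasgrp4* (0.0012) and *Ipmk* (-0.0069). It also turned in some of the fits with a library left out for *Lrp5* (-0.13 to 0.073), *Tspan12* (-0.0100 to 0.10), *Itih3* (-0.071 to 0.045), *S100a6* (-0.079 to 0.080), *Rasgrp1* (-0.098 to 0.0023), *Rasgrp2* (-0.058 to 0.15), *Itpkc* (-0.20 to 0.0090), *Itpr1* (-0.070 to 0.066), *Bmpr1a* (-0.031 to 0.11) and *Fkbp1a* (-0.061 to 0.011), all of which lie near 0. *Rasgrp4*, *Has2* and *Ptx3* are limited by their few reads.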
